A study of Homo sapiens with 12 samples.

Results

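TIGAR, RRM2B, CDKN1A, MDM2, TP53INP1, SESN1, BTG2, GDF15, FAS and TP53I3 are 10 genes known as transcriptional targets of the tumour suppressor p53. They are described here in 2 human cancer cell lines after knockdown of KDM3A, a histone demethylase that removes methyl groups from lysine 9 of histone H3. The genes were chosen by name, with their earlier results in view: low TIGAR, RRM2B and CDKN1A signals on the siKDM3A arrays of A549 brought the family to notice. Their values in that comparison are therefore given as a description with no test. Of the 10 genes, 9 had at least 1 probe set assigned to them alone and were measured among 14057 genes tested, and BTG2 was not analysed here. The 9 genes had 26 such probe sets, of which 20 passed the filter on dim signals, and the brightest probe set of each gene, by its mean over 12 arrays, stands for the gene.

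The cells were A549, a lung adenocarcinoma line grown in RPMI1640, and SW780, a bladder carcinoma line grown in Leibovitz L-15 medium, both with fetal bovine serum. Each line received an siRNA at 100 nM by lipid transfection for 24 h: siKDM3A, or 1 of 2 controls, siEGFP and siFFluc, named for the green fluorescent protein and firefly luciferase genes that human cells lack. This gave 6 groups of 2 Affymetrix U133 Plus 2.0 arrays, so each line had 4 control arrays, and no untransfected culture was among them. The labels do not state whether the 2 arrays of a group came from separate transfections, so a p-value here reflects array-to-array spread that could be technical. Each siRNA is named by its target alone, so an effect of a duplex on other transcripts cannot be told apart from loss of its target.

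Values are MAS5 signals, a linear measure of brightness that the authors had scaled to the same trimmed mean on every array. Changes are differences of log2(signal + 16), which understate the change of dim genes, with the standard error (SE) of the model. KDM3A itself averaged 1391 ± 106 (SD, n = 4) on A549 control arrays and 702 ± 14.1 (SD, n = 2) on siKDM3A arrays, and 394 ± 33.6 (SD, n = 4) against 210 ± 18.5 (SD, n = 2) in SW780. The median signal of the siKDM3A arrays was 53.1 and 51.9 in A549 against 57.4 to 59.1 on its controls, and 58.1 and 54.3 in SW780 against 50.3 to 54.2. Scaling arrays to a common median moved the median change of all genes from -0.02 to 0.10 in A549, from 0.03 to -0.05 in SW780 and from -0.11 to 0.01 between lines. Of 9 urothelial markers tested, 8 were higher and 1 lower on control arrays of SW780 than of A549 by limma's test. Over all genes, 29.9% were higher and 38.5% lower. UPK1A read 1568 to 2144 in SW780 and 13.7 to 75.5 in A549, UPK1B 7237 to 10865 and 663 to 791, and GATA3 10803 to 16049 and 303 to 422. In the other direction, the basal keratin KRT5 read 90.9 to 291 in SW780 and 5442 to 5976 in A549, and UPK3A (4.0 to 9.3, below the filter), UPK2 (77.6 to 194) and KRT20 (46.8 to 116) were dim in SW780. Of the lung and A549 markers, AKR1B10 (28728 to 31335), AKR1C1, KRT18, KRT8 and AGR2 (1182 to 2043) were bright in A549, while the alveolar genes SFTPB (92.1 to 211), NAPSA (45.9 to 121), SFTPC (17.4 to 67.8) and NKX2-1 (2.5 to 26.0, below the filter) were dim. The lung and A549 list did not separate the lines, with 5 of 8 higher and 3 lower in SW780.

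Some markers moved with the siRNAs. In SW780, 4 of 8 lung and A549 markers and 1 of 9 urothelial markers were called lower under siKDM3A (medians -0.17 and -0.26), and 3 of 8 and 2 of 9 were called higher with siFFluc than with siEGFP. In A549, 2 of 8 and 0 of 9 were called lower under siKDM3A. Over all genes, 6.18% were called lower under siKDM3A in SW780 and 6.37% in A549, and 3.07% higher with siFFluc in SW780. The summed signal of 4 leukocyte markers was 214 to 248 on A549 controls and 186 to 201 on its siKDM3A arrays, and 123 to 174 and 176 to 194 in SW780, with PTPRC at most 24.0, ITGAM at 61.1 to 138 over both lines, and none of the 2 tested called. The summed signal of 5 fibroblast markers was 879 to 975 on the A549 siKDM3A arrays against 1170 to 1250 on its controls, and 586 to 592 against 481 to 861 in SW780, with 0 of the 3 tested called. No marker with a probe set read 0 on any array, but PTPRC, CD14, COL3A1 and PDGFRB were below the filter on dim signals. Readings that dim do not show that leukocytes or fibroblasts were present. The part of these shifts in the results was not tested. In these extracts fewer cells and less RNA per cell cannot be told apart.

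The p53 protein is a transcription factor that DNA damage and other stresses stabilise, and that binds paired half-sites in DNA. Its targets fall into arms that halt the cell cycle, supply repair, protect against oxidants, promote death, and, through MDM2, end the response by marking p53 for degradation. A shift in p53 activity is usually read from several of these arms, since each target also has other regulators.

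Upstream sequences were taken from RefSeq (GRCh38.p14), which held 15 windows of 250 bases before a start site for 8 of the 10 genes. The p53 half-site consensus, searched on both strands, occurred in 1957 of 35116 such windows (5.57%). It occurred in 1 of 3 windows of SESN1 and 1 of 3 windows of FAS. The single window of TIGAR, the gene of the family with the lowest siKDM3A signals relative to controls, had none, at 76.8% G and C with 34 CpG pairs, against a median of 58.0% and 11 over all windows. Neither trait was particular to TIGAR. CDKN1A (76.4% and 27 pairs) and BTG2 (74.8% and 30) were alike and also had no half-site. The windows of MDM2 (59.2% to 74.4%), GDF15 (58.4%) and TP53I3 (51.2%) had none either. The SESN1 and FAS stretches are shown with the half-site in capitals, and the TIGAR window is shown whole for its base composition. These are matches of letters, and a window without one says nothing about more distant sites.
SESN1, chr6:109009018-109009047, minus strand: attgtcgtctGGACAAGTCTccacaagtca
FAS, chr10:88991299-88991328, plus strand: cggaactcctGGACAAGCCCtgacaagcca
TIGAR, chr12:4320963-4321212, plus strand: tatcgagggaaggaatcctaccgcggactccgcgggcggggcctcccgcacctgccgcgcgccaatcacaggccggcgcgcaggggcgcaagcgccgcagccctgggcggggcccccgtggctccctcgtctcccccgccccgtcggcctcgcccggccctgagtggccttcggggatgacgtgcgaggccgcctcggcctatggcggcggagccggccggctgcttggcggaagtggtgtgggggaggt

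Across the 6 groups the genes did not move as one. TIGAR and RRM2B, a metabolic enzyme and a ribonucleotide reductase subunit, had the lowest siKDM3A signals relative to controls in both lines, while SESN1 was higher in both, MDM2 was near its control level on its main probe set, and GDF15 and TP53I3 lay on opposite sides of the controls in the 2 lines. The values that brought the family to notice were those of A549, though earlier results of these data were known when it was chosen. In SW780, limma's moderated test called 1 of 9 genes higher (SESN1) and 2 lower (TIGAR and RRM2B) at a Benjamini-Hochberg adjusted p under 0.05. Over all 14057 genes, 5.73% were called higher and 6.18% lower in that comparison. The median change of the 9 genes was -0.03 in SW780, where that of all genes was 0.03. In A549, whose values chose the genes, their median was 0.01 and that of all genes was -0.02.

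**Figure D1:**
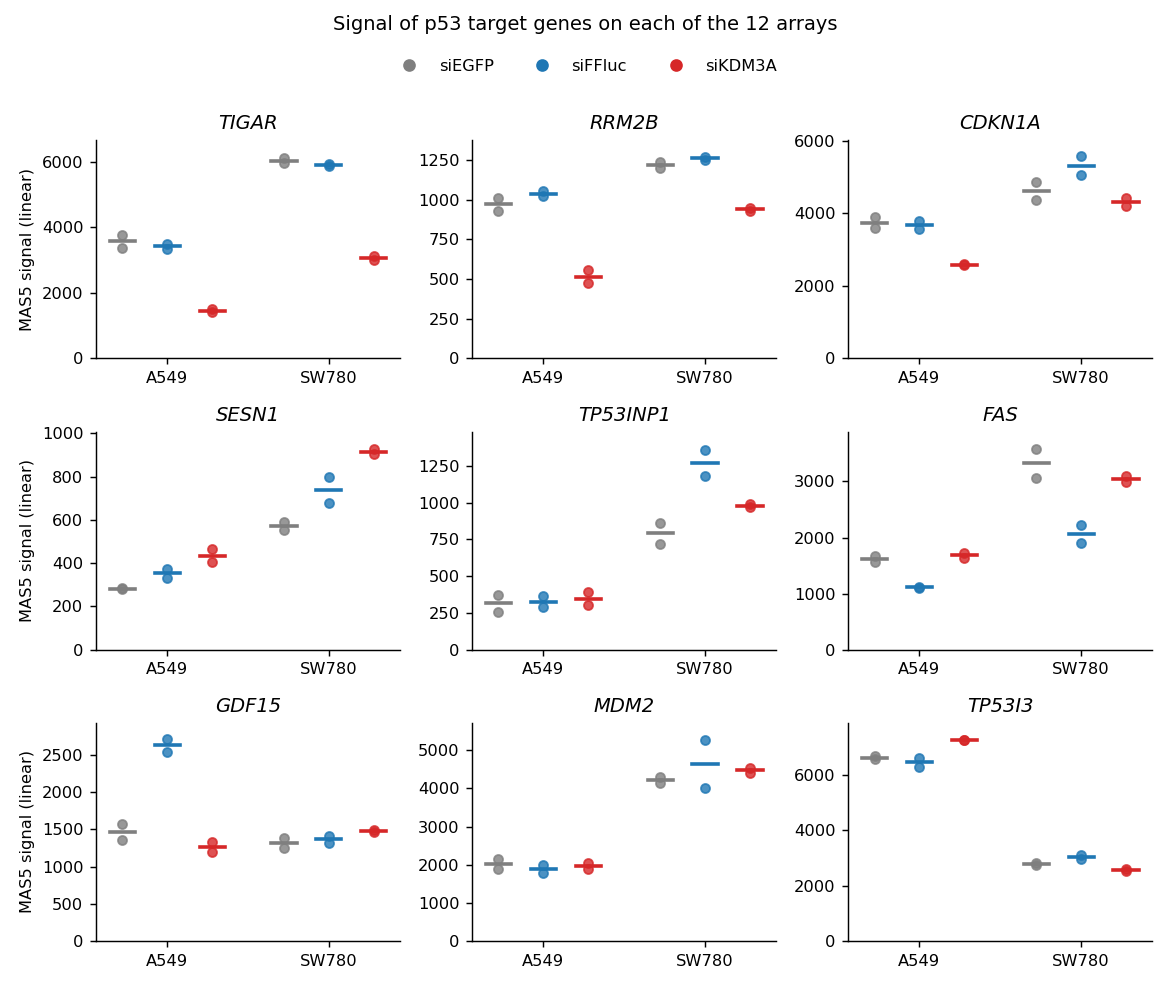
MAS5 signal (linear axis) of the main probe set of each of 9 p53 target genes on every array, by line and siRNA. Each point is 1 array and each bar a group mean of 2 arrays. TIGAR and RRM2B were lowest on siKDM3A arrays in both lines, SESN1 was highest there, and FAS was lowest on siFFluc arrays.

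The same genes can be read by overlap of the arrays alone. In SW780 both siKDM3A arrays lay above all 4 controls for GDF15 and SESN1 and below all 4 for RRM2B, TIGAR and TP53I3. Over all genes this held for 15.4% above and 13.3% below. In A549 it held above for SESN1 and TP53I3 and below for CDKN1A, GDF15, RRM2B and TIGAR, against 17.0% and 19.9% of all genes. In the same direction in both lines it held for 656 genes above (4.67% of all genes) and 805 below (5.73%). Among them were SESN1 above and TIGAR and RRM2B below.

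TIGAR encodes a fructose bisphosphatase that lowers glycolytic flux and favours the pentose phosphate pathway and antioxidant supply. Its signal in SW780 was 6106 and 5960 with siEGFP, 5922 and 5866 with siFFluc, and 2986 and 3128 with siKDM3A. The siKDM3A arrays averaged 51.3% of the control mean, and the groups did not overlap. TIGAR fell by 0.96 ± 0.06 on the log2 scale in SW780, with limma's adjusted p = 2.29e-06. In A549 the signal was 3368 and 3773 with siEGFP, 3331 and 3498 with siFFluc, and 1489 and 1422 with siKDM3A, or 41.7% of the control mean. The A549 arrays thus also separated fully, with a change of -1.25 ± 0.06. Ranked by change among 14057 genes, TIGAR was 62nd from the bottom in A549 and 119th in SW780. It was the only one of the 9 genes whose call in SW780 held under all 24 alternative settings run (adjusted p between 1.22e-06 and 0.000235).

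RRM2B encodes the p53-inducible small subunit of ribonucleotide reductase, which supplies deoxynucleotides for DNA repair and mitochondrial DNA in cells outside S phase. In SW780 its signal was 1200 and 1242 with siEGFP, 1255 and 1271 with siFFluc, and 931 and 950 with siKDM3A. Both siKDM3A arrays lay below all controls, at 75.7% of their mean. RRM2B fell by 0.40 ± 0.08 in SW780 (limma's adjusted p = 0.00894). That call was lost without either siKDM3A array of SW780 (adjusted p = 0.0780 without replicate 1 and 0.0599 without replicate 2, over a range of 0.00414 to 0.0780 in all settings). In A549 the signal was 1013 and 932 with siEGFP, 1054 and 1023 with siFFluc, and 556 and 474 with siKDM3A, a change of -0.95 ± 0.08. Its A549 siKDM3A level was 51.2% of controls, farther below them than in SW780, a difference between lines of 0.55 ± 0.12 that was not tested because A549 values chose the genes. RRM2, the S-phase small subunit that RRM2B can replace, was called higher in A549 (0.34 ± 0.07, limma's adjusted p = 0.00677). In SW780 RRM2 stood at 0.19 ± 0.07 (adjusted p = 0.102), or 0.36 against siEGFP alone (adjusted p = 0.0175) and 0.01 against siFFluc alone.

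CDKN1A encodes p21, the inhibitor of cyclin-dependent kinases that arrests the cell cycle. Its signal in SW780 was 4877 and 4380 with siEGFP, 5580 and 5058 with siFFluc, and 4428 and 4199 with siKDM3A. The siKDM3A and siEGFP arrays overlapped. The change was -0.20 ± 0.07, and limma's adjusted p = 0.0800 did not pass the threshold. It did pass with siFFluc as the only control (-0.30, adjusted p = 0.0236) and with median scaling (-0.28, adjusted p = 0.0376). In A549 the signal was 3604 and 3889 with siEGFP, 3566 and 3778 with siFFluc, and 2602 and 2565 with siKDM3A. These groups did not overlap, at -0.52 ± 0.07.

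SESN1 encodes sestrin 1, a stress protein that restrains mTORC1 and limits oxidants, and it moved opposite to TIGAR. In SW780 its signal was 556 and 591 with siEGFP, 799 and 676 with siFFluc, and 905 and 928 with siKDM3A. The siKDM3A arrays were highest, and the siFFluc arrays lay between them and siEGFP. SESN1 rose by 0.49 ± 0.11 in SW780 (limma's adjusted p = 0.0129). Against siFFluc alone the rise was 0.31 with an adjusted p of 0.125, and without either siKDM3A array the call was lost (0.0791 and 0.0990). In A549 the signal was 278 and 283 with siEGFP, 330 and 374 with siFFluc, and 404 and 466 with siKDM3A. The order of the siRNAs was the same, with siKDM3A at 0.45 ± 0.11 against both controls and 0.29 against siFFluc alone. Of the 9 genes it was the only one with both siKDM3A arrays above all controls in both lines.

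TP53INP1 encodes a nuclear protein that promotes p53-dependent cell death. In SW780 its signal was 718 and 863 with siEGFP, 1181 and 1357 with siFFluc, and 968 and 989 with siKDM3A. The siKDM3A arrays lay between the control siRNAs, so the change against their average was -0.03 ± 0.16 (adjusted p = 0.938). In A549 it ran from 255 to 388 over all 6 arrays with every group overlapping, at 0.11 ± 0.16.

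FAS encodes the death receptor of the extrinsic apoptosis pathway. In SW780 its signal was 3067 and 3580 with siEGFP, 1896 and 2227 with siFFluc, and 2986 and 3095 with siKDM3A. It was the siFFluc arrays that stood apart, and siKDM3A arrays overlapped siEGFP arrays. In A549 the signal was 1664 and 1560 with siEGFP, 1120 and 1098 with siFFluc, and 1723 and 1643 with siKDM3A. The siFFluc arrays were again lowest and the siKDM3A and siEGFP arrays again overlapped, though here siKDM3A had the highest mean. The siKDM3A change against the average of both controls was 0.22 ± 0.08 in SW780 (limma's adjusted p = 0.111) and 0.33 ± 0.08 in A549. With siFFluc as the only control it was 0.56 in SW780 (adjusted p = 0.00200) and 0.59 in A549, and with siEGFP alone it was -0.12 (adjusted p = 0.514) and 0.06. The 3 other bright FAS probe sets also had their lowest signals on siFFluc arrays, and in SW780 they were called higher under siKDM3A, at 0.40, 0.36 and 0.47 (adjusted p = 0.0216, 0.0342 and 0.0188, over 27056 probe sets). On every SW780 siKDM3A array their signal nonetheless lay below the siEGFP mean.

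**Figure D2:**
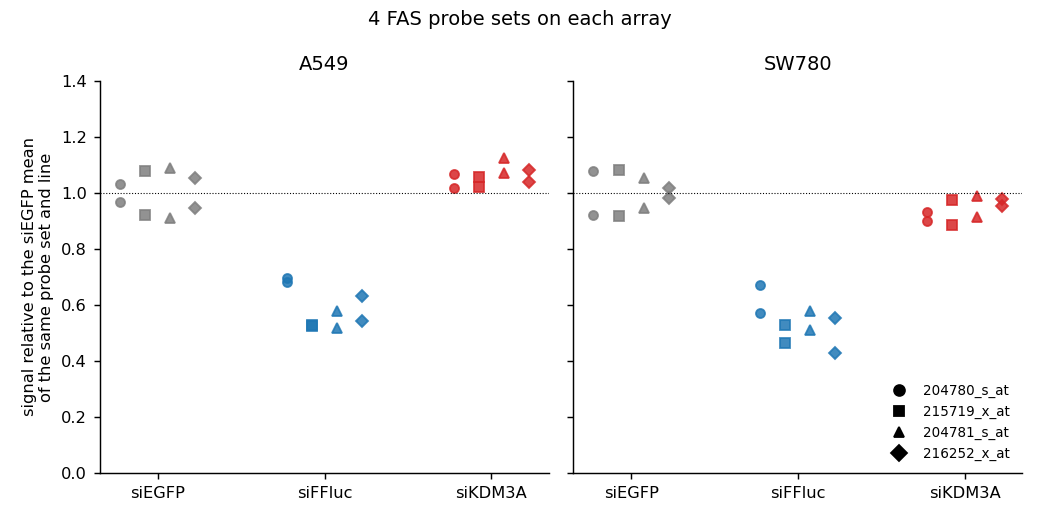
FAS signal on each array relative to the mean of the siEGFP arrays of the same line, for the 4 bright FAS probe sets, with the siEGFP arrays beside them and 1 point for each array and probe set (a marker shape for each set). The siFFluc points lie between 0.427 and 0.695 and the siKDM3A points between 0.887 and 1.13.

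GDF15 encodes a secreted stress cytokine of the TGF-beta family. In A549 its signal was 1355 and 1580 with siEGFP, 2545 and 2717 with siFFluc, and 1337 and 1196 with siKDM3A. Here too the siFFluc arrays stood apart, on the high side. The change under siKDM3A was -0.63 ± 0.08 against both controls, -1.05 against siFFluc alone and -0.21 against siEGFP alone. In SW780 the signal was 1248 and 1380 with siEGFP, 1407 and 1324 with siFFluc, and 1470 and 1494 with siKDM3A, a change of 0.15 ± 0.08 (limma's adjusted p = 0.304). Both SW780 siKDM3A arrays lay above all controls, the side opposite to A549.

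MDM2 encodes the ubiquitin ligase that degrades p53 and is itself induced by it. In SW780 its main probe set read 4299 and 4148 with siEGFP, 5267 and 4014 with siFFluc, and 4395 and 4545 with siKDM3A. The siKDM3A arrays lay above both siEGFP arrays but within the range of the siFFluc pair. The change was 0.02 ± 0.10 (limma's adjusted p = 0.932). In A549 it read 2140 and 1883 with siEGFP, 1994 and 1773 with siFFluc, and 2042 and 1884 with siKDM3A, at 0.01 ± 0.10. The second brightest MDM2 probe set, disagreed: it was called lower in SW780 (-0.31 ± 0.08, adjusted p = 0.0311 over 27056 probe sets) and was at -0.22 in A549. The 6 other MDM2 probe sets that passed the filter were not called in SW780. MDM4, its relative that blocks p53 activity, was at -0.02 ± 0.09 in A549 (adjusted p = 0.951) and 0.06 ± 0.09 in SW780 (adjusted p = 0.737).

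TP53I3 encodes a quinone oxidoreductase linked to oxidative stress. In A549 its signal was 6562 and 6673 with siEGFP, 6284 and 6616 with siFFluc, and 7261 and 7252 with siKDM3A. In SW780 it was 2754 and 2810 with siEGFP, 2945 and 3095 with siFFluc, and 2527 and 2605 with siKDM3A. The siKDM3A arrays were the highest in A549 and the lowest in SW780, though both shifts were small. They were 0.15 ± 0.05 in A549 and -0.17 ± 0.05 in SW780 (limma's adjusted p = 0.0582), and the SW780 value passed the threshold with siFFluc as the only control (-0.23, adjusted p = 0.0272) and with median scaling (-0.25, adjusted p = 0.0187).

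**Figure D3:**
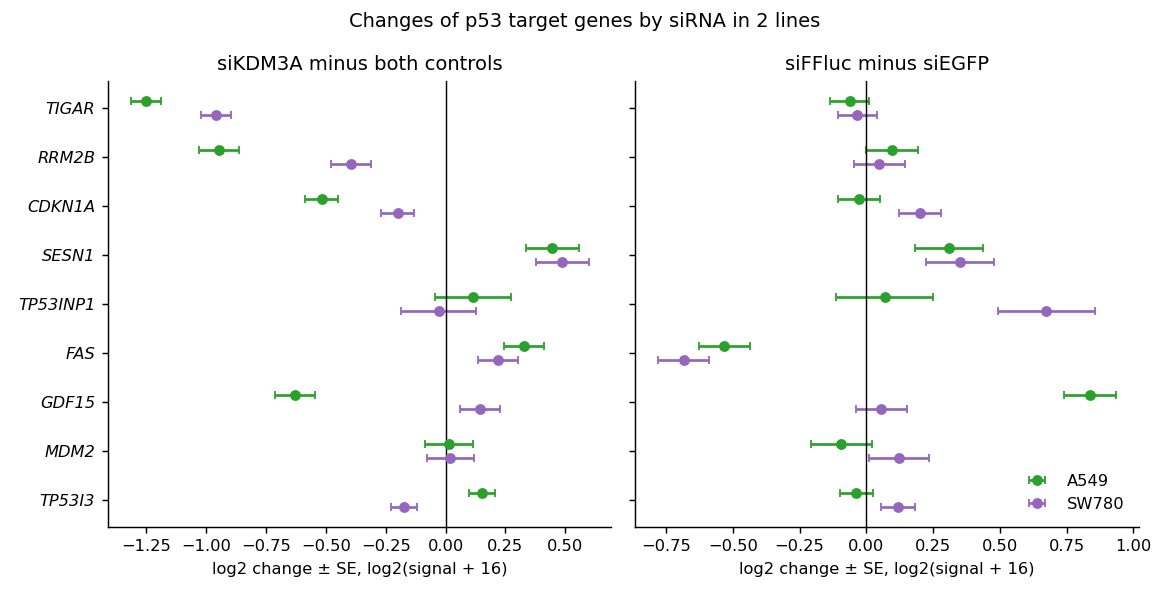
Change in log2(signal + 16), with bars of 1 standard error, for 9 p53 target genes in A549 and SW780, as siKDM3A minus both controls (left panel) and siFFluc minus siEGFP (right panel). On the left TIGAR (-1.25 and -0.96) and RRM2B (-0.95 and -0.40) lie below 0 in both lines, SESN1 (0.45 and 0.49) above, and GDF15 (-0.63 and 0.15) on both sides.

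The siEGFP and siFFluc siRNAs are named for genes that human cells lack, and their difference shows how far the family moved between control siRNAs. Any effect of either duplex on other transcripts is part of that difference. In A549, GDF15 was higher with siFFluc (0.84 ± 0.10, limma's adjusted p = 0.000234) and FAS lower (-0.53 ± 0.10, adjusted p = 0.00712), where 1.43% of all genes were called higher and 1.49% lower. In SW780, FAS was lower (-0.69 ± 0.10, adjusted p = 0.00184) and TP53INP1 higher (0.67 ± 0.18, adjusted p = 0.0492), where 3.07% were higher and 2.65% lower. The FAS call in A549 was lost without siEGFP replicate 1 or either siFFluc array, and the TP53INP1 call was lost in 15 of 22 alternative settings (adjusted p between 0.00778 and 0.252). TIGAR and RRM2B did not pass the threshold, at -0.06 ± 0.07 and 0.10 ± 0.10 in A549 (adjusted p = 0.840 and 0.804) and -0.03 ± 0.07 and 0.05 ± 0.10 in SW780 (adjusted p = 0.848 and 0.830). The difference of GDF15 between lines, -0.78 ± 0.14, did not pass the threshold in a comparison added after the data were seen (adjusted p = 0.0958, with 3 of 14057 genes called and 1575 at an unadjusted p under 0.05). The siKDM3A comparisons use the same control arrays.

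The lines themselves differed in all 9 genes. On control arrays, 7 were higher in SW780 and 2 lower by limma's test, where 29.9% of all genes were higher and 38.5% lower. The widest difference above was that of TP53INP1 (1.61 ± 0.13, adjusted p = 1.01e-07), followed by MDM2 (1.17 ± 0.08, adjusted p = 2.09e-08), SESN1 (1.01 ± 0.09, adjusted p = 3.02e-07) and FAS (0.96 ± 0.07, adjusted p = 2.74e-08). TIGAR (0.77 ± 0.05, adjusted p = 1.57e-08), CDKN1A (0.42 ± 0.06, adjusted p = 1.67e-05) and RRM2B (0.30 ± 0.07, adjusted p = 0.00143) were also higher. TP53I3 (-1.17 ± 0.04, adjusted p = 5.94e-11) and GDF15 (-0.55 ± 0.07, adjusted p = 8.41e-06) were lower. TIGAR with siKDM3A in SW780, at 3058 ± 100 (SD, n = 2), therefore remained above TIGAR with siKDM3A in A549, at 1455 ± 47.5 (SD, n = 2).

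The genes whose arrays most resembled those of TIGAR and RRM2B were sought over all 12 arrays after removing each gene's mean in each line. The measure was the root mean square difference of log2(signal + 16). Those nearest TIGAR were UAP1 (0.10), AAR2 (0.10), LYRM7 (0.11), NAGK (0.12) and SERINC1 (0.12), of which UAP1 and NAGK act in amino sugar metabolism. Because they were picked for likeness to TIGAR on these same arrays, their lower signal under siKDM3A in both lines follows from the choice. Their changes ran from -1.45 (LYRM7) to -0.995 (NAGK) in A549 and from -1.04 (UAP1) to -0.79 (NAGK) in SW780. RRM2B ranked 66th by likeness to TIGAR, CDKN1A 376th and SESN1 12906th of the genes tested. Those nearest RRM2B were PAQR3 (0.07), EIF1AD (0.08), SLC15A4 (0.09), SPRING1 (0.10) and TMED8 (0.10), and CDKN1A ranked 171st and TIGAR 445th by likeness to it. These arrays include the A549 values that chose TIGAR, RRM2B and CDKN1A, so the ranks are a description.

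Other p53 targets, in a list of 59 of which 54 were tested, were called in both directions. In SW780, 4 of 54 were higher and 3 lower, close to the shares of all genes (5.73% and 6.18%), with a median of 0.06 against 0.03. The 4 that rose were FBXW7, a ubiquitin ligase receptor (0.69 ± 0.14, adjusted p = 0.00621), ANKRA2 (0.62 ± 0.09, adjusted p = 0.000832), TRIAP1, an inhibitor of cell death (0.33 ± 0.06, adjusted p = 0.00331), and PMAIP1, the death protein NOXA (0.29 ± 0.07, adjusted p = 0.0186, or 0.0693 against siFFluc alone). The 3 that fell, named after their values were seen, were CYFIP2 (-0.44 ± 0.12, adjusted p = 0.0311), the helicase ASCC3 (-0.33 ± 0.09, adjusted p = 0.0238) and the semaphorin receptor PLXNB2 (-0.33 ± 0.10, adjusted p = 0.0425), and they were at 0.20, -0.05 and 0.10 in A549 without passing the threshold. Against siEGFP alone, a comparison added after the data were seen, 5 of 54 were higher and 0 lower in SW780. The calls of CYFIP2, ASCC3 and PLXNB2 were thus lost there, where 3.04% of all genes were higher and 3.32% lower. With siFFluc alone as control, 5 were higher and 3 lower, beside 6.99% and 7.28% of all genes. In A549, 7 of 54 were higher and 7 lower, where 5.33% of all genes were higher and 6.37% lower, with a median of 0.01 against -0.02. Against siEGFP alone, 2 were higher and 6 lower in A549, beside 3.74% and 4.32% of all genes. TRIAP1 rose there too (0.34 ± 0.06, adjusted p = 0.00249), while FBXW7, ANKRA2 and PMAIP1 did not pass the threshold (0.15, 0.11 and -0.19). The insulin-like growth factor carrier IGFBP3 rose in A549 (0.73 ± 0.07, adjusted p = 2.51e-05) and was at 0.00 in SW780. Another 3 targets fell in A549: the ceramidase ACER2 (-0.72 ± 0.14, adjusted p = 0.00463), SUSD6 (-0.63 ± 0.10, adjusted p = 0.00121) and the phosphatase PPM1D, which switches off p53 signalling (-0.56 ± 0.08, adjusted p = 0.000419). In SW780 they were at 0.05, -0.32 and -0.10, with SUSD6 at an adjusted p of 0.0560.

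Regulators of p53 were examined in a list of 28, of which 24 were tested. In SW780, 5 were higher and 1 lower (median 0.08 against 0.03 over all genes, of which 5.73% and 6.18% were called), and in A549, 2 were higher and 4 lower (median 0.01 against -0.02, with 5.33% and 6.37% of all genes). Against siEGFP alone, a comparison added after the data were seen, 2 were higher and 2 lower in SW780, and 1 was higher and 3 lower in A549, where 3.04% and 3.32%, and 3.74% and 4.32%, of all genes were called. HIPK2, a kinase that phosphorylates p53, was the one that fell in SW780. Its signal was 357 and 365 with siEGFP, 410 and 375 with siFFluc, and 223 and 217 with siKDM3A (-0.73 ± 0.08, adjusted p = 0.000179). In A549 it fell from 3662 and 3473 with siEGFP and 3856 and 4005 with siFFluc to 1595 and 1379 (-1.33 ± 0.08, adjusted p = 9.97e-07), a separation of all arrays in both lines. The checkpoint kinase CHEK1 (0.40 ± 0.08, adjusted p = 0.00463) and the ligase TRIM24 (0.30 ± 0.07, adjusted p = 0.0137, or 0.0794 against siEGFP alone) rose in SW780 and were at 0.01 and -0.04 in A549. USP7, which deubiquitinates p53 and MDM2, was called higher in A549 (0.37 ± 0.07, adjusted p = 0.00666) and SW780 (0.29 ± 0.07, adjusted p = 0.0240), but its siKDM3A arrays lay near siEGFP and it was low on siFFluc arrays, at 0.458 and 0.655 of siEGFP. Against siEGFP alone USP7 was at -0.19 in A549 and -0.01 in SW780. ATM and the DNA repair kinase PRKDC fell in A549 (-0.55 ± 0.15, adjusted p = 0.0319, with 0.0717 and 0.0659 against a single control siRNA, and -0.43 ± 0.07, adjusted p = 0.00178).

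Cell cycle genes that p21 represses through the DREAM complex numbered 20, all tested. In SW780, 6 were higher and 1 lower (median 0.16 against 0.03 over all genes, of which 5.73% and 6.18% were called), and in A549, 5 were higher and 0 lower (median 0.19 against -0.02, with 5.33% and 6.37% of all genes). Their medians for siFFluc minus siEGFP were -0.10 and -0.13, so the list lay lower on siFFluc than on siEGFP arrays by its median. Against siEGFP alone, 2 were higher and 1 lower in SW780 (median 0.14) and 3 higher and 0 lower in A549 (median 0.12). Of all genes, 3.04% were higher and 3.32% lower in that SW780 comparison, and 3.74% and 4.32% in A549. Against siFFluc alone 7 were higher in SW780 and 6 in A549, where 6.99% and 4.45% of all genes were. CDK1, the mitotic kinase, rose in A549 (0.49 ± 0.07, adjusted p = 0.000719) and in SW780 (0.28 ± 0.07, adjusted p = 0.0224, or 0.0726 against siEGFP alone). AURKB rose by 0.36 ± 0.06 and 0.47 ± 0.06 (adjusted p = 0.00240 and 0.000529), and passed against each control siRNA alone in both lines. CCNB2 rose by 0.36 ± 0.07 and 0.35 ± 0.07 (adjusted p = 0.00647 and 0.00751), and KIF23 by 0.24 ± 0.06 and 0.30 ± 0.06 (adjusted p = 0.0224 and 0.00678). Against siEGFP alone CCNB2 stood at 0.29 in A549 and at 0.23 in SW780 (adjusted p = 0.0487 and 0.140), and KIF23 at 0.16 and 0.15 (adjusted p = 0.201 and 0.261). CCNA2 rose in SW780 (0.46 ± 0.08, adjusted p = 0.00218) and was at 0.15 in A549. TOP2A was called higher in SW780 (0.40 ± 0.06, adjusted p = 0.000820), but it was low on siFFluc arrays, at 0.763 of siEGFP, and against siEGFP alone it was at 0.21 (adjusted p = 0.0842) and in A549 at -0.15 (adjusted p = 0.199).

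Enzymes around TIGAR and RRM2B were 32 genes of glycolysis control, the pentose phosphate pathway and deoxynucleotide supply, 29 of them tested. In SW780, 4 were higher and 5 lower (median 0.01 against 0.03 over all genes, of which 5.73% and 6.18% were called), and in A549, 5 were higher and 3 lower (median 0.03 against -0.02, with 5.33% and 6.37% of all genes). Against siEGFP alone 3 were higher and 0 lower in SW780, and 2 higher and 1 lower in A549. Of all genes, 3.04% were higher and 3.32% lower in that SW780 comparison, and 3.74% and 4.32% in A549. In the pentose phosphate pathway, PGD (-0.64 ± 0.10, adjusted p = 0.00115) and TKT (-0.44 ± 0.08, adjusted p = 0.00492) were called lower in SW780 and were at -0.08 and 0.13 in A549. Their siFFluc arrays in SW780 were high, at 1.49 and 1.23 of siEGFP, and against siEGFP alone they were at -0.36 and -0.29 (adjusted p = 0.0771 and 0.0994). PKM, the pyruvate kinase, was also lower in SW780 (-0.86 ± 0.17, adjusted p = 0.00618), with siFFluc array 1 at 16570 where the other 3 controls read 7888 to 9052, and it was at -0.55 against siEGFP alone (adjusted p = 0.126). RPIA was called higher in A549 (0.69 ± 0.09, adjusted p = 0.000319) and SW780 (0.53 ± 0.09, adjusted p = 0.00206), but as with USP7 its siFFluc arrays were low, at 0.360 of siEGFP in A549 and 0.447 in SW780, and against siEGFP alone it was at -0.04 in both. In A549 the regulators of fructose bisphosphate PFKFB4 (-0.78 ± 0.16, adjusted p = 0.00931) and PFKL (-0.50 ± 0.14, adjusted p = 0.0373) fell and PFKFB3 rose (0.39 ± 0.08, adjusted p = 0.00924). The PFKL call was lost against siEGFP alone (-0.35, adjusted p = 0.237) and the PFKFB3 call against siFFluc alone (0.27, adjusted p = 0.101).

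**Figure D4:**
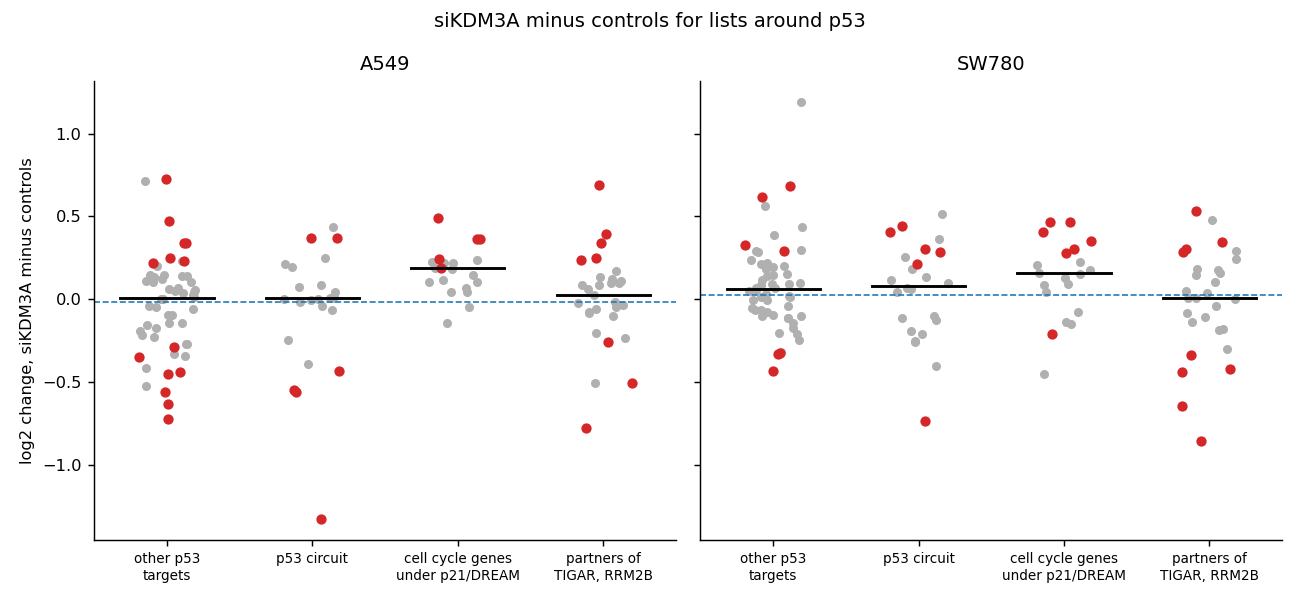
Change under siKDM3A in log2(signal + 16) for every tested gene of the 4 lists in A549 and SW780, with 1 point for each gene (red where called by limma, grey where not), a bar at each list's median and a dashed line at the median of all genes. The medians run from 0.01 to 0.19, and the lists hold genes on both sides of 0.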

How the data were processed

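The authors deposited linear signal intensities, which the submitters' processing notes credit to MAS5 with no version. The trimmed mean, leaving out 2% at each end, was 499.9 on all 12 arrays. After removal of 62 control probe sets, 54613 of 54675 remained: 41091 carried 1 gene symbol, 1801 several and 11721 none in an annotation of 2016, and 41037 symbols were updated through gene numbers with RefSeq names (GRCh38.p14). Probe sets with a mean below the 40th percentile (29.6) were dropped, leaving 32768 and 14057 genes, each with its brightest probe set.

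Values of log2(signal + 16) were fitted in limma 3.58.1 (R 4.3.3) with 6 group means and a trended prior. siKDM3A was compared with the average of both control group means. Adjusted p-values are Benjamini-Hochberg over 14057 genes, or, for further probe sets of a gene, over the 27056 kept probe sets with 1 symbol in a fit of their own. Pseudocount, filter, scaling, probe set, control, block and left-out arrays were varied. The procedure was tested on simulated data. Figures used matplotlib 3.10.9 under Python 3.11.15.

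The members and lists were chosen with earlier results of these data known. Named were the members, KDM3A, RRM2, MDM4, up to 4 members of each list by smallest p in SW780 and up to 4 by largest change past the threshold in A549, and the 5 genes most like TIGAR and RRM2B. One further gene of this rule is not reported here.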

Additional observations from a re-analysis of the deposited data

Results flagged for a closer look

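GDF15 and TP53I3 lay on opposite sides of the controls in the 2 lines, with every siKDM3A array above all 4 controls in one line and below all 4 in the other. For GDF15 the siKDM3A change was 0.77 higher in SW780 than in A549, and for TP53I3 the same difference was -0.33. Neither difference was tested, because the A549 values chose the genes. GDF15 was high on the A549 siFFluc arrays (2545 and 2717), and its siKDM3A change there was -0.21 against siEGFP alone.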

How the results depend on the processing

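In SW780 the main count of 3 called genes became 5 with median scaling (CDKN1A and TP53I3 added) and 5 with siFFluc as the only control (FAS, CDKN1A and TP53I3 added, SESN1 lost), and ran from 1 to 5 when single arrays were left out: 1 (TIGAR) without either SW780 siKDM3A array, and 5 without SW780 siFFluc replicate 2, where CDKN1A (adjusted p = 0.0262) and FAS (0.0225) joined by limma's test. TP53I3 passed at 0.0273 without SW780 siFFluc replicate 1 and at 0.0430 with the filter at the 60th percentile. The count of 2 between control siRNAs in A549 ran from 1 to 2 without single arrays. The count of 2 in SW780 was 1 under pseudocount 1, no filter, quantile normalization, median scaling or the mean of probe sets, and ran from 1 to 2 without single arrays. MDM2 turned to -0.31 in SW780 on its second brightest probe set. With the replicate number as a block, 4 genes were called in SW780, CDKN1A added at limma's adjusted p = 0.0470. Deviations of same-numbered arrays correlated at -0.0309 to 0.0124, so no shared shift of same-numbered arrays was seen. Whether these arrays were handled together is not stated in the labels. Against siEGFP alone, USP7 turned to -0.19 in A549 and -0.0134 in SW780, and RPIA to -0.0399 and -0.0422. Of 160 such single-control values of named genes outside the family, 136 stayed on their side of the threshold in the same direction, 15 lost their call and 5 gained one. That tally includes the 5 genes most like TIGAR and the 5 most like RRM2B. Their low siKDM3A signals follow from the choice, so the tally is no measure of stability in general. With 2 arrays a group, small changes are weakly resolved, and dim probe sets have only loose values.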
